A study of Homo sapiens with 9 samples.

Results

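The axon guidance ligands and receptors are the ephrins and their Eph receptors, the semaphorins with plexins and neuropilins, the Slits with Robos, and the netrins with DCC and the UNC5 family. Members were the protein-coding rows of the count table whose symbol belongs to one of these families, and they numbered 69 of 46427 genes. Of the 69, 68 passed the filter on low counts and were tested among 20685 genes; the exception was ROBO4. RNA was sequenced in 9 libraries, 3 in each of 3 groups, all from H9, a long-established line of human embryonic stem cells (hESC). The first group was day 11 neural progenitor cells (NPC) exposed to bafilomycin A1 (BafA1), called BafA1 NPC, the second was untreated day 11 NPC, called control NPC, and the third was undifferentiated hESC without treatment. BafA1 blocks the vacuolar proton pump and with it lysosomal acidification and the clearance of autophagosomes. It was given at 10 nM for 6 h, in windows of days that the labels list without saying which applies to the sequenced cells. Both NPC groups came from the same cell line by a midbrain dopaminergic protocol with LDN193189, SB431542, purmorphamine (labelled Purmophamine) and CHIR99021. Replicates are labelled biological, without a word on separate cultures, so that p-values measure only the spread between these libraries.

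Guidance molecules tell growing axons and migrating cells where to go. Ephrins stay on the cell surface, A-type through a lipid anchor and B-type through a membrane-spanning domain, and signal at cell contacts through Eph receptor kinases and back into the cell that carries them. Class 3 semaphorins are secreted and mostly act on plexins through the co-receptors neuropilin 1 and 2, while semaphorins of the other vertebrate classes are bound to the membrane and mostly act on plexins directly. In the neural tube the floor plate, the ventral midline from which midbrain dopaminergic progenitors also arise, secretes netrin-1 and Slits. Netrin attracts axons through DCC and repels through UNC5 receptors, and Slits repel through Robo receptors.

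Library totals were 43124679 to 69703791 counts. Values of single genes are CPM, counts relative to the library total scaled by edgeR's trimmed mean of M values, given per library in the order of the replicate numbers or as mean ± SD of n = 3. Levels of different genes are compared only in the authors' FPKM, which are per transcript length. A member was called changed at an edgeR quasi-likelihood adjusted p (Benjamini-Hochberg over all 20685 genes) under 0.05. Pluripotency markers set hESC apart from both NPC groups. They summed to 53.0 to 55.9 CPM in BafA1 NPC, 59.1 to 67.8 CPM in control NPC and 3578 to 3776 CPM in hESC. POU5F1, TDGF1 and PRDM14 had no count in control NPC. The 6 floor plate markers summed to 694, 565 and 519.7 CPM in BafA1 NPC, 403, 499 and 714 CPM in control NPC and 135, 141 and 121 CPM in hESC. All 6 rose in control NPC against hESC. The endothelial markers were low throughout, at 21.1 to 26.6 CPM in BafA1 NPC, 26.7 to 33.7 CPM in control NPC and 60.5 to 65.8 CPM in hESC. The mesenchyme markers summed to 2030.3 to 2263 CPM in BafA1 NPC, 1102 to 1842 CPM in control NPC and 69.7 to 74.4 CPM in hESC, and the epithelial markers to 765 to 1056, 501 to 683 and 1629.6 to 1819 CPM in the same order of groups. The 6 neural progenitor markers summed to 932 to 1147, 913 to 969 and 468 to 511 CPM, the 8 neuronal markers to 656 to 695, 620.2 to 662 and 247 to 266 CPM and the 6 neural crest markers to 62.8 to 77.7, 55.6 to 91.7 and 170.2 to 193 CPM, with FOXD3 at 0 in both NPC groups. The neural progenitor sum in control NPC was mostly NES (614 ± 30.2 CPM) and SOX2 (272 ± 20.7 CPM). PAX6 and HES5 were at 0.380 ± 0.163 and 0.381 ± 0.268 CPM there. Against hESC, 6 of the 8 neuronal markers were called higher in control NPC and 1 lower. The lower one was RBFOX3, at 0.327 ± 0.136 CPM in control NPC and 22.3 ± 2.75 CPM in hESC. Libraries were made from bulk cultures, in which fewer cells of a type and less RNA per cell cannot be told apart.

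The comparison of BafA1 NPC with control NPC asks what block of lysosomal acidification changed in progenitors. In these families the ligand genes EFNA1 and EFNA3 rose most and the receptor gene PLXNA2 fell most. In all, 23 of 68 members rose and 9 fell, or 33.8% and 13.2%, against a background of 20.8% and 20.7% of all genes tested. The median log2 change was 0.17 over the members and 0.00 over all genes. Of the members called, 9 rose and 2 fell by at least 2-fold, and 25 separated the libraries of both groups without overlap. The shares of all genes that did so were not counted, so these numbers describe the members only. With scaling by library size alone 16 members rose and 11 fell, the median of all genes moved by -0.12, and 15% of all genes were called higher and 27.5% lower. On the log2(FPKM + 1) scale limma gave 13 members that rose and 11 that fell, and 14.2% of all genes were called higher and 27.7% lower. Without BafA1 replicate 3 the members that fell numbered 5. The summed epithelial and mesenchyme markers given above were also higher in every BafA1 library than in any control library. Of the 6 epithelial markers 4 were called higher and 0 lower, and of the 6 mesenchyme markers 2 and 2. The epithelial sum was mostly KRT8 and KRT18, whose annotated genes overlap. In BafA1 and control NPC, KRT8 was at 632 ± 122 and 422 ± 62.9 CPM and KRT18 at 219 ± 42.8 and 157 ± 29.6 CPM. CDH1 (1.01 ± 0.323 and 0.285 ± 0.0476 CPM) and CLDN4 (3.67 ± 1.12 and 1.03 ± 0.364 CPM) were called higher at low levels. EPCAM and ESRP1 were not called. The mesenchyme sum was mostly COL1A1, at 1963 ± 129.8 CPM in BafA1 NPC and 1211 ± 361 CPM in control NPC. PDGFRA was also called higher (log2 change 0.49), while PRRX1 and LUM were called lower (-1.54 and -1.67). The part of these markers in the members' changes was not tested.

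**Figure D1:**
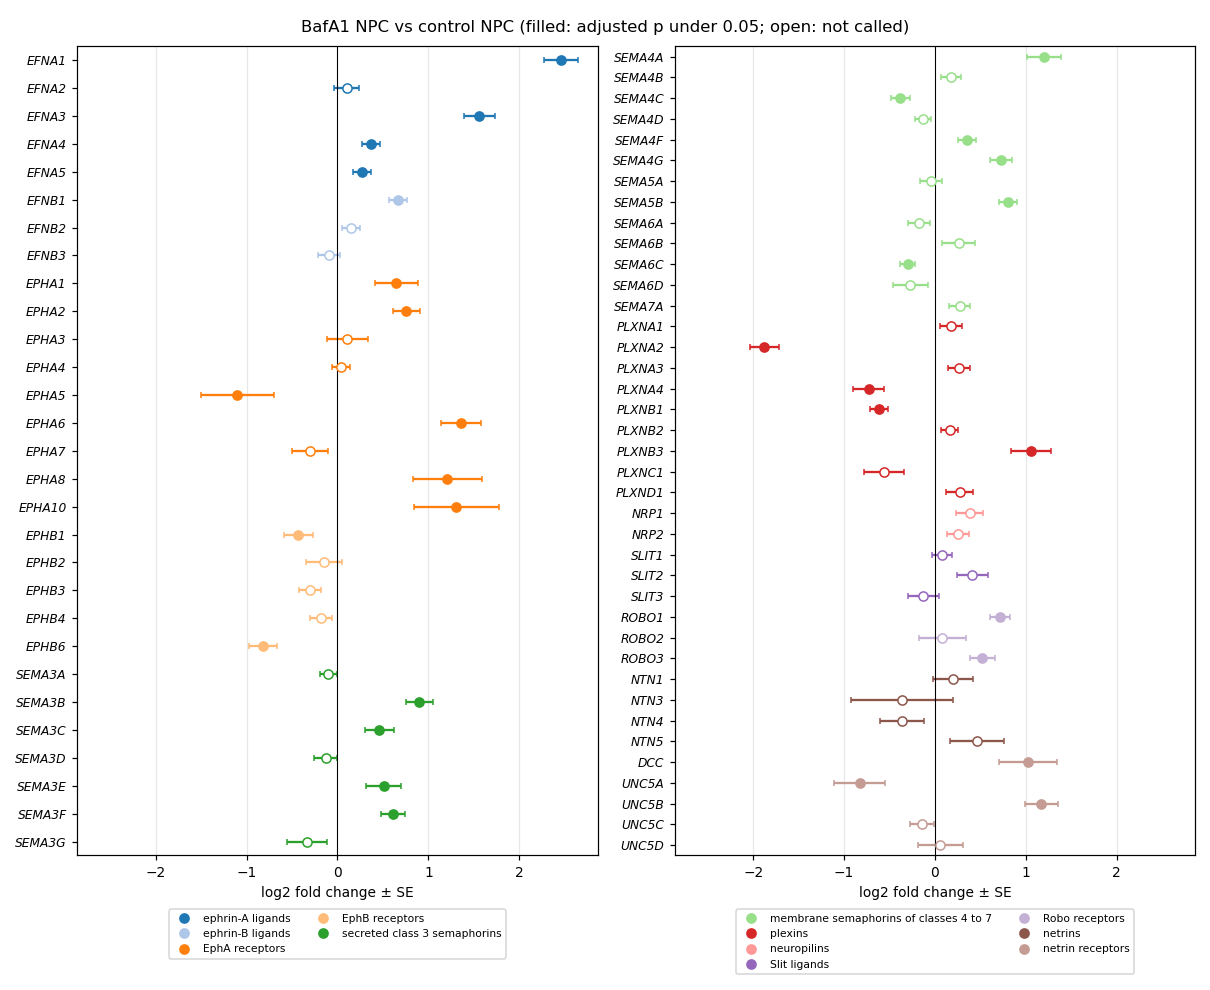
Log2 fold change (x axis, with SE bars) of each of the 68 tested members in BafA1 NPC against control NPC, n = 3 libraries each, coloured by family; filled points passed an edgeR adjusted p under 0.05. EFNA1 at 2.46 and PLXNA2 at -1.88 are the extremes, and 4 of 5 ephrin-A genes are filled and to the right of 0.

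Among the ephrin-A ligands 4 of 5 rose and none fell. EFNA1 (chr1:155127876-155134899, GRCh38), which encodes a ligand of EphA2, had 9.69, 7.87 and 11.8 CPM in BafA1 NPC, against 1.87, 1.74 and 1.74 CPM in control NPC. Every treated library was above every control library, a 5.49-fold difference (log2 change 2.46 ± 0.19 SE, edgeR adjusted p = 1.13e-05). Its neighbour EFNA3 (chr1:155078837-155087538) had 41.6, 38.2 and 54.8 CPM in BafA1 NPC, against 12.7, 14.8 and 18.2 CPM in control NPC (log2 change 1.56 ± 0.17 SE, edgeR adjusted p = 4.43e-05), again with no overlap. EFNA4 (chr1:155063740-155069553), the next member on the same strand, had 26.9, 29.4 and 33.5 CPM in BafA1 NPC, against 22.1, 22.4 and 25.0 CPM in control NPC (log2 change 0.37 ± 0.10 SE, edgeR adjusted p = 0.0131). The EFNA4 call was lost without control replicate 2 (adjusted p = 0.0567) or BafA1 replicate 3 (0.0607), with library size alone (0.0616) and with GC and length corrected (0.0703). EFNA3 starts 9.28 kb beyond the end of EFNA4, and EFNA1 40.3 kb beyond the end of EFNA3. RefSeq also annotates a readthrough transcript over EFNA4 and EFNA3 that has no row of its own in the count table, so the assignment of reads between these genes is uncertain. EFNA5, a long gene on chromosome 5, was at 76.0 ± 2.23 CPM in BafA1 NPC and 62.9 ± 8.16 CPM in control NPC (log2 change 0.27 ± 0.10 SE, edgeR adjusted p = 0.0449), a call lost in 13 of 20 settings, among them without hESC replicate 1 (0.0676), hESC replicate 2 (0.0554), hESC replicate 3 (0.0634), control replicate 2 (0.0935), control replicate 3 (0.145), BafA1 replicate 2 (0.0992) or BafA1 replicate 3 (0.108). Without control replicate 3 the log2 change of EFNA5 was 0.17. EFNA2 was at 11.0 ± 1.60 and 10.3 ± 1.02 CPM (edgeR adjusted p = 0.596).

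The 250 bases before the annotated starts of the 3 neighbouring ephrin-A genes are shown because all were called higher in BafA1 NPC, EFNA4 by least. Those of SEMA3B, which rose and holds a hypoxia-type motif, and of PLXNA2, which fell most, are shown beside them. Sequences are from RefSeq (GRCh38.p14), and 59 of 69 members had one. Capitals mark ACGTG, the core of the hypoxia response element, and GGGCGG, the GC box, on either strand. In the order printed, the windows are chr1:155063490-155063739, plus strand; chr1:155078587-155078836, plus strand; chr1:155127626-155127875, plus strand; chr3:50272869-50273118, plus strand, at a start inside the gene's annotated span; and chr1:208244385-208244634, minus strand.
EFNA4: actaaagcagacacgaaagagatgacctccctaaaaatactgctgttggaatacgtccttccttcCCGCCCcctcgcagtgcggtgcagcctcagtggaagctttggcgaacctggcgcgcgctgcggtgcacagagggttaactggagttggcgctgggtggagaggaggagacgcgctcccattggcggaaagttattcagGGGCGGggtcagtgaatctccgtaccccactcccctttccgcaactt
EFNA3: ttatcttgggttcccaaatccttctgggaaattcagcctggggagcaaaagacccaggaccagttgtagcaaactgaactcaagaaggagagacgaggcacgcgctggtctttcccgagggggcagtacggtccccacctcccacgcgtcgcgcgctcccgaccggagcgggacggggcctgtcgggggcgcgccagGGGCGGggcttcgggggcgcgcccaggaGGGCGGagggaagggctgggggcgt
EFNA1: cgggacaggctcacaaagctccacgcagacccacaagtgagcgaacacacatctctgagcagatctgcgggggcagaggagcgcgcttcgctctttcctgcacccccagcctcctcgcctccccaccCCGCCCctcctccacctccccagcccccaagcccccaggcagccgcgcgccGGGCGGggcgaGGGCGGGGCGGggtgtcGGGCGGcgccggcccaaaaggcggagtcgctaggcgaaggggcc
SEMA3B: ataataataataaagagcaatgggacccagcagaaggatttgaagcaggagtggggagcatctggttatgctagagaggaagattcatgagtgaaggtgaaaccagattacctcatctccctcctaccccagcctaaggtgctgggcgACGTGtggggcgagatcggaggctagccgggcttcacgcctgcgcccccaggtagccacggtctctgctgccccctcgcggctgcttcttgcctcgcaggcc
PLXNA2: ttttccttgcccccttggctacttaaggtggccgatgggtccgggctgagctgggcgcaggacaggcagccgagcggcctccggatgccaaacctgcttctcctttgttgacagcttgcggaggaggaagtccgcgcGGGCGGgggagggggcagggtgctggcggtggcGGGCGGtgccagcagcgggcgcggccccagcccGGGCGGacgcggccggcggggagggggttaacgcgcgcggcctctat

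The EFNA4, EFNA3 and EFNA1 windows held 2, 2 and 5 matches of GGGCGG and none of ACGTG, the SEMA3B window 1 match of ACGTG and none of GGGCGG, and the PLXNA2 window 3 matches of GGGCGG and none of ACGTG. Overlapping matches were counted apart, and CACGTG, the E-box core, contains ACGTG. Over all members 7 of 59 windows held ACGTG (11.9%), against 18.7% of 27305 promoters of the same length and 22.5% of the 12622 that belong to tested protein-coding genes. GGGCGG was in 43 of 59 (72.9%), against 42.3% of the 27305 and 64.8% of the 12622. CACGTG was in 4 of 59 (6.78%, against 6.49% and 8.64%), and the AP-1 motif TGACTCA in none of 59 (against 4.16% and 2.61%). Among members that rose, 3 of 21 windows held ACGTG (EPHA8, SEMA3B and SEMA3E), among those that fell 1 of 9 (PLXNA4), and among those not called 3 of 28. A match describes the letters of the window only.

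Among the ephrin-B ligands only EFNB1 passed the test. EFNB1, on the X chromosome, had 110.4, 139 and 139.9 CPM in BafA1 NPC, against 82.8, 84.8 and 77.9 CPM in control NPC (log2 change 0.67 ± 0.10 SE, edgeR adjusted p = 2.71e-04), with no overlap. EFNB2, the most abundant ephrin-B gene in control NPC by FPKM (33.0 ± 3.84), was at 207 ± 18.4 CPM in BafA1 NPC and 186 ± 21.0 CPM in control NPC (edgeR adjusted p = 0.231). EFNB3 was at 72.7 ± 5.07 and 77.5 ± 13.6 CPM (edgeR adjusted p = 0.552). Summed over the 5 ephrin-A genes, FPKM were 60.0 ± 8.34 in BafA1 NPC and 39.7 ± 0.760 in control NPC, and EFNA3 held the largest share in BafA1 NPC (33.5%), while EFNA4 held it in control NPC (42.5%).

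Of 9 EphA receptors 5 rose and 1 fell, and of 5 EphB receptors 0 rose and 2 fell. EPHA2, the main EphA gene of the progenitors by FPKM, had 125, 148 and 184 CPM in BafA1 NPC, against 104, 90.4 and 75.3 CPM in control NPC (log2 change 0.76 ± 0.15 SE, edgeR adjusted p = 0.00166). The lowest treated library was above the highest control library. EPHA6 had 3.79, 3.66 and 5.11 CPM in BafA1 NPC, against 1.37, 1.5 and 2.01 CPM in control NPC (log2 change 1.36 ± 0.22 SE, edgeR adjusted p = 5.13e-04). This call was lost on the FPKM scale (limma on log2(FPKM + 0.1), 0.49, adjusted p = 0.217). EPHB6, a receptor without kinase activity, fell to 6.17, 4.46 and 3.99 CPM in BafA1 NPC, against 8.55, 8.72 and 8.59 CPM in control NPC (log2 change -0.82 ± 0.15 SE, edgeR adjusted p = 0.00114). EPHB2, a receptor of ephrin-B ligands in commissural and retinal axons, had 173, 118 and 94.2 CPM in BafA1 NPC and 120.3, 131 and 174 CPM in control NPC, with overlap (edgeR adjusted p = 0.582). EPHA4, which binds both ephrin classes, was at 112 ± 10.1 and 109 ± 12.6 CPM (edgeR adjusted p = 0.797). EPHA3 and EPHA7 had log2 changes of 0.11 ± 0.23 and -0.30 ± 0.20 SE, EPHB3 and EPHB4 of -0.30 ± 0.12 and -0.18 ± 0.12, and none of the 4 was called.

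The other Eph calls were close to the threshold. EPHA1 was at 1.19 ± 0.227 CPM in BafA1 NPC and 0.759 ± 0.288 CPM in control NPC (log2 change 0.65 ± 0.24 SE, edgeR adjusted p = 0.0460), EPHA5 at 0.226 ± 0.0609 and 0.493 ± 0.124 CPM (log2 change -1.10 ± 0.40 SE, edgeR adjusted p = 0.0469) and EPHA10, which lacks kinase activity, at 0.369 ± 0.187 and 0.146 ± 0.0784 CPM (log2 change 1.31 ± 0.47 SE, edgeR adjusted p = 0.0415). EPHB1 was at 40.6 ± 1.63 CPM in BafA1 NPC and 54.7 ± 15.1 CPM in control NPC (log2 change -0.43 ± 0.16 SE, edgeR adjusted p = 0.0486). Of 20 alternative settings, the call was lost in 15 for EPHA1, 16 for EPHA5 (which 1 setting did not test), 13 for EPHA10 and 12 for EPHB1. EPHA1 was not called without hESC replicate 1 (0.0649), hESC replicate 2 (0.0631), hESC replicate 3 (0.0642), control replicate 1 (0.0858), control replicate 3 (0.137), BafA1 replicate 2 (0.0909) or BafA1 replicate 3 (0.191) (adjusted p in parentheses). EPHA5 was not called without hESC replicate 1 (0.0661), hESC replicate 2 (0.0570), hESC replicate 3 (0.0591), control replicate 1 (0.168), control replicate 2 (0.0869), control replicate 3 (0.0558), BafA1 replicate 2 (0.130) or BafA1 replicate 3 (0.118). EPHA10 was not called without hESC replicate 1 (0.0545), hESC replicate 2 (0.0583), hESC replicate 3 (0.0560), control replicate 1 (0.123), control replicate 3 (0.113) or BafA1 replicate 1 (0.179), and EPHB1 without hESC replicate 1 (0.0683), hESC replicate 2 (0.0617), hESC replicate 3 (0.0637), control replicate 1 (0.222), control replicate 2 (0.126), BafA1 replicate 1 (0.0886), BafA1 replicate 2 (0.0912) or BafA1 replicate 3 (0.132). EPHA8 was at 1.31, 1.19 and 0.404 CPM in BafA1 NPC and 0.424, 0.389 and 0.422 CPM in control NPC (log2 change 1.21 ± 0.38 SE, edgeR adjusted p = 0.0244), with 1 treated library inside the control range. Its call was lost without control replicate 1 (0.0574), control replicate 2 (0.0722), control replicate 3 (0.0514), BafA1 replicate 1 (0.0962) or BafA1 replicate 2 (0.0784). The log2 change was 0.38 for EPHA1 without control replicate 3, 0.81 for EPHA10 without BafA1 replicate 1 and -0.24 for EPHB1 without control replicate 1.

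Of the 7 secreted class 3 semaphorins 4 rose and none fell. SEMA3B had 10.3, 10.4 and 9.75 CPM in BafA1 NPC, against 5.37, 5.39 and 5.49 CPM in control NPC (log2 change 0.90 ± 0.15 SE, edgeR adjusted p = 7.65e-04). The libraries of each group lay close together and the groups did not overlap. SEMA3F, whose product repels axons through neuropilin 2, had 19.9, 14.9 and 17.6 CPM in BafA1 NPC, against 10.7, 10.8 and 12.8 CPM in control NPC (log2 change 0.61 ± 0.13 SE, edgeR adjusted p = 0.00287), which limma on log2(FPKM + 1) did not call (0.0641). SEMA3C, the class 3 gene with the highest FPKM in both NPC groups, had 183, 170.2 and 201 CPM in BafA1 NPC, against 141, 144 and 118 CPM in control NPC (log2 change 0.46 ± 0.16 SE, edgeR adjusted p = 0.0358). The SEMA3C call was lost without control replicate 1 (0.0576), control replicate 2 (0.0665), control replicate 3 (0.102), BafA1 replicate 1 (0.0506) or BafA1 replicate 3 (0.115) and with library size alone (0.117). SEMA3E, a ligand of plexin D1, was at 7.73 ± 1.55 CPM in BafA1 NPC and 5.43 ± 0.982 CPM in control NPC (log2 change 0.51 ± 0.19 SE, edgeR adjusted p = 0.0441). That call was lost in 12 of 20 settings, among them without hESC replicate 1 (0.0606), hESC replicate 2 (0.0589), hESC replicate 3 (0.0582), control replicate 1 (0.0941), control replicate 2 (0.173), BafA1 replicate 1 (0.150) or BafA1 replicate 3 (0.0793). SEMA3A, the collapsin that acts through neuropilin 1, was at 46.3 ± 3.92 and 49.7 ± 2.28 CPM (edgeR adjusted p = 0.392). SEMA3D and SEMA3G had log2 changes of -0.13 ± 0.13 and -0.33 ± 0.22 SE and were not called.

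**Figure D2:**
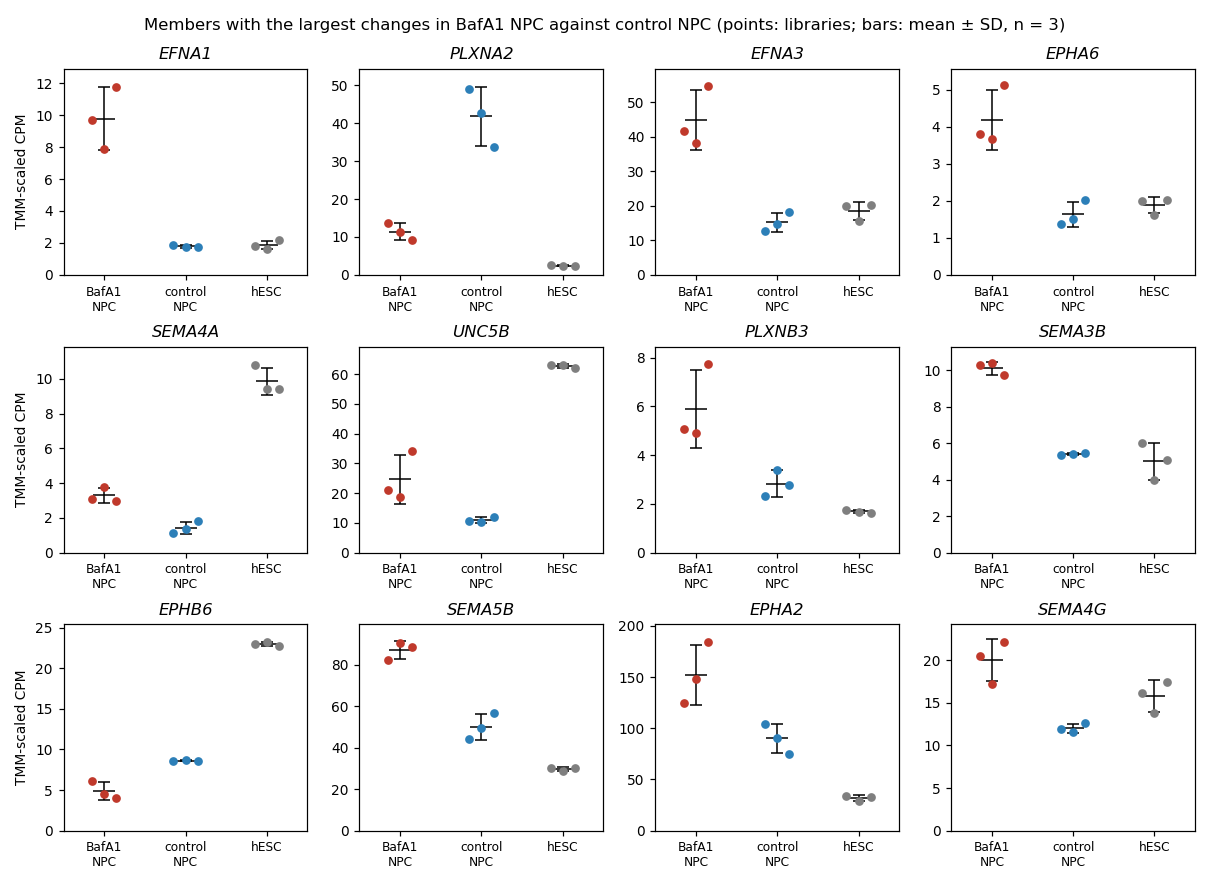
TMM-scaled CPM (y axis, from 0) of the 12 members with the largest called changes without overlap in BafA1 NPC against control NPC, in BafA1 NPC, control NPC and hESC; points are libraries, bars mean ± SD of n = 3. EFNA1 has 9.69, 7.87 and 11.8 CPM in BafA1 NPC and 1.87, 1.74 and 1.74 CPM in control NPC, and PLXNA2 13.7, 11.2 and 9.30 and 49.0, 42.7 and 33.7 CPM.

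Of the 13 membrane semaphorins 4 rose and 2 fell. SEMA4A had 3.11, 3.75 and 3.00 CPM in BafA1 NPC, against 1.12, 1.37 and 1.80 CPM in control NPC (log2 change 1.20 ± 0.19 SE, edgeR adjusted p = 5.45e-04). SEMA5B, a membrane semaphorin with thrombospondin repeats, had 82.0, 90.5 and 88.5 CPM in BafA1 NPC, against 44.0, 49.3 and 56.8 CPM in control NPC (log2 change 0.80 ± 0.10 SE, edgeR adjusted p = 8.35e-05). SEMA4G had 20.5, 17.2 and 22.1 CPM in BafA1 NPC, against 11.9, 11.6 and 12.6 CPM in control NPC (log2 change 0.73 ± 0.12 SE, edgeR adjusted p = 6.83e-04). It overlaps the mitochondrial ribosomal gene MRPL43, and the sources do not say whether reads were counted by strand, so its value is uncertain. SEMA4F was at 24.3 ± 1.39 CPM in BafA1 NPC and 19.1 ± 0.736 CPM in control NPC (log2 change 0.35 ± 0.10 SE, edgeR adjusted p = 0.0146), a call lost with library size alone (adjusted p = 0.129) and with limma on log2(FPKM + 1) (0.489). SEMA4C, a ligand of plexin B2, fell to 47.0, 49.4 and 43.3 CPM in BafA1 NPC, against 65.9, 61.9 and 53.4 CPM in control NPC (log2 change -0.38 ± 0.10 SE, edgeR adjusted p = 0.00929). SEMA6C was at 22.6 ± 1.43 CPM in BafA1 NPC and 27.8 ± 1.77 CPM in control NPC (log2 change -0.30 ± 0.08 SE, edgeR adjusted p = 0.0136), a call that did not hold without control replicate 1 (0.0516) or BafA1 replicate 3 (0.0530). The other 7, from SEMA6A at 135 ± 26.3 and 153 ± 6.53 CPM to SEMA6D at 8.78 ± 2.28 and 10.6 ± 1.67 CPM in BafA1 and control NPC, were not called.

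Of 9 plexins 1 rose and 3 fell, and neither neuropilin was called. PLXNA2 (chr1:208022242-208244384), a receptor of SEMA6A and of class 3 semaphorins with neuropilins, fell to 13.7, 11.2 and 9.30 CPM in BafA1 NPC, against 49.0, 42.7 and 33.7 CPM in control NPC. The highest treated library was below the lowest control library, and the treated level was 3.68-fold lower (log2 change -1.88 ± 0.16 SE, edgeR adjusted p = 1.55e-05). PLXNB1, the receptor of SEMA4D, had 82.6, 68.9 and 77.7 CPM in BafA1 NPC, against 119.9, 125 and 108 CPM in control NPC (log2 change -0.62 ± 0.10 SE, edgeR adjusted p = 4.23e-04). PLXNA4 was low, at 1.77, 1.54 and 1.46 CPM in BafA1 NPC and 2.68, 2.38 and 2.85 CPM in control NPC (log2 change -0.73 ± 0.17 SE, edgeR adjusted p = 0.00487). PLXNB3, a receptor of SEMA5A, rose to 5.08, 4.90 and 7.75 CPM in BafA1 NPC, against 2.31, 3.41 and 2.78 CPM in control NPC (log2 change 1.06 ± 0.22 SE, edgeR adjusted p = 0.00231). PLXNA1, PLXNB2 and PLXND1 were not called. In BafA1 and control NPC, PLXNA1 was at 186 ± 37.8 and 164 ± 2.30 CPM (edgeR adjusted p = 0.238). PLXNB2 was at 228 ± 19.5 and 204 ± 19.8 CPM (edgeR adjusted p = 0.188) and PLXND1 at 96.0 ± 7.37 and 79.6 ± 20.8 CPM (edgeR adjusted p = 0.181). PLXNA3 and PLXNC1 had log2 changes of 0.26 ± 0.12 and -0.56 ± 0.22 SE and were not called. NRP1 had 54.0, 47.5 and 55.8 CPM in BafA1 NPC, against 42.2, 37.7 and 40.8 CPM in control NPC, without overlap but with an edgeR adjusted p of 0.0564. NRP2 was at 249 ± 25.4 and 209 ± 33.0 CPM (edgeR adjusted p = 0.104).

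In the Slit and Robo families the receptors ROBO1 and ROBO3 rose and no Slit passed the test. ROBO1, the broadly expressed Slit receptor, had 132, 109 and 146 CPM in BafA1 NPC, against 86.1, 75.7 and 74.7 CPM in control NPC (log2 change 0.71 ± 0.11 SE, edgeR adjusted p = 3.36e-04), with no overlap. ROBO3, which in commissural neurons permits midline crossing, had 6.70, 7.75 and 8.54 CPM in BafA1 NPC, against 4.74, 5.69 and 5.65 CPM in control NPC (log2 change 0.52 ± 0.14 SE, edgeR adjusted p = 0.0124). The ROBO3 call was lost without BafA1 replicate 3 (0.05), with GC and length corrected (0.0600) and with limma on log2(FPKM + 1) (0.493). ROBO2 had 14.9, 7.17 and 7.34 CPM in BafA1 NPC and 9.45, 7.42 and 11.0 CPM in control NPC, where BafA1 replicate 1 stood above the other treated libraries (edgeR adjusted p = 0.828). SLIT2, the most abundant Slit by FPKM, had 467, 300.1 and 309.8 CPM in BafA1 NPC and 249, 236 and 326 CPM in control NPC (log2 change 0.41 ± 0.17 SE, edgeR adjusted p = 0.0675), again with BafA1 replicate 1 highest. SLIT1 was at 156 ± 6.32 and 148 ± 19.9 CPM (edgeR adjusted p = 0.614) and SLIT3 at 21.7 ± 3.66 and 23.8 ± 4.14 CPM (edgeR adjusted p = 0.579) in BafA1 and control NPC.

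No netrin gene was called, and among the netrin receptors 2 of 5 rose and 1 fell. UNC5B (chr10:71212570-71302864), a repellent netrin receptor also known from endothelium, had 21.0, 18.8 and 34.0 CPM in BafA1 NPC, against 10.8, 10.2 and 12 CPM in control NPC (log2 change 1.17 ± 0.18 SE, edgeR adjusted p = 4.12e-04). All treated libraries were above the control libraries, with replicate 3 highest. DCC had 21.0, 9.60 and 8.96 CPM in BafA1 NPC and 4.70, 5.66 and 9.12 CPM in control NPC (log2 change 1.02 ± 0.32 SE, edgeR adjusted p = 0.0228). The 2 groups overlapped, and without BafA1 replicate 1 the log2 change was 0.52 (adjusted p = 0.110). The call was also lost without control replicate 1 (0.0854) or 2 (0.0808). NTN1, the floor plate attractant, had 177, 114 and 83.7 CPM in BafA1 NPC and 93.0, 99.7 and 134 CPM in control NPC (edgeR adjusted p = 0.502). NTN4 was at 4.64 ± 1.40 and 5.95 ± 1.12 CPM (edgeR adjusted p = 0.262), and NTN3 and NTN5 were under 2 CPM in every library. UNC5A was at 0.392 ± 0.143 CPM in BafA1 NPC and 0.695 ± 0.150 CPM in control NPC (log2 change -0.83 ± 0.28 SE, edgeR adjusted p = 0.0336), a call that did not hold without hESC replicate 1 (0.0521), control replicate 1 (0.0666), control replicate 2 (0.129), BafA1 replicate 2 (0.0795) or BafA1 replicate 3 (0.133). It overlaps the hexokinase gene HK3. UNC5C and UNC5D had log2 changes of -0.14 ± 0.13 and 0.06 ± 0.25 SE and were not called.

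Values of NTN1, DCC, EPHB2 and SLIT2, chosen after their values were seen, are set beside the summed floor plate markers as a description. In each NPC group the library with the highest marker sum, BafA1 replicate 1 at 694 CPM and control replicate 3 at 714 CPM, also had the highest NTN1, DCC, EPHB2 and SLIT2. The library with the lowest sum, BafA1 replicate 3 at 519.7 CPM and control replicate 1 at 403 CPM, had the lowest NTN1, DCC and EPHB2, but not the lowest SLIT2. Of 68 tested members 16 were highest in both of the libraries with the highest sum, and 5 of these (EPHA7, EPHB2, SLIT3, NTN1 and DCC) were also lowest in both of those with the lowest sum. The 6 markers did not all follow their sum: EN1 had 2.49, 2.88 and 3.66 CPM in BafA1 NPC and 6.26, 5.59 and 2.99 CPM in control NPC. LMX1A in control NPC and OTX2 in both groups were lowest in replicate 2. Between the 2 groups only FOXA2 was called among the 6, at 163 ± 5.29 CPM in BafA1 NPC and 101 ± 12.1 CPM in control NPC (log2 change 0.68 ± 0.10 SE, edgeR adjusted p = 2.13e-04). BafA1 replicate 1 was the highest treated library in 42 of 68 tested members, and control replicate 3 the highest control library in 26. BafA1 replicate 3 was the lowest treated library in 24, and control replicate 1 the lowest control library in 22. The 16 and the 5 were not compared with the numbers among all genes. The 16 were also not compared with the overlap that 42 and 26 of 68 would give without any link. These numbers therefore do not set the members apart and show no link to the marker sum. The part of the floor plate share in the change of DCC was not tested.

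**Figure D3:**
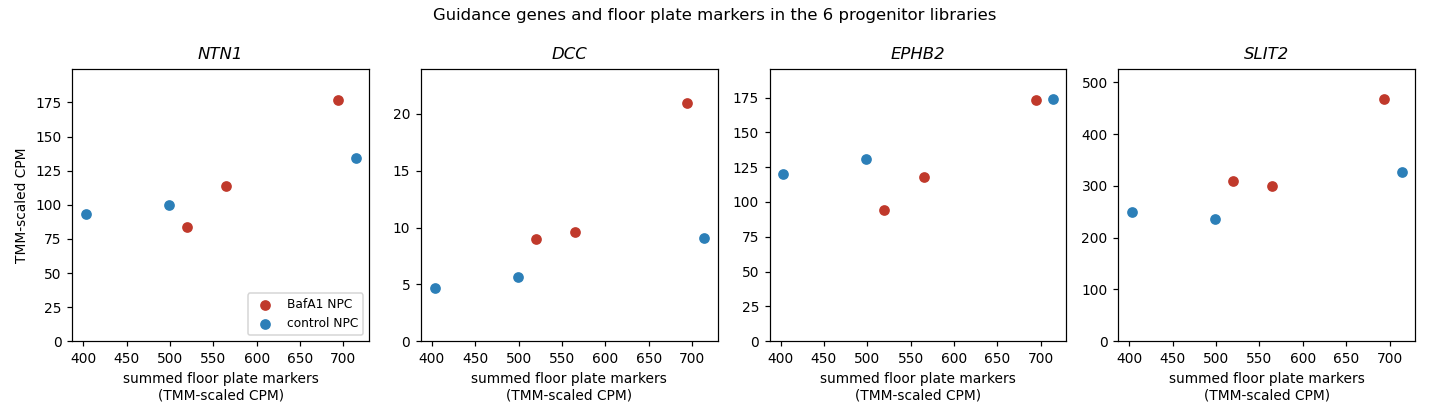
TMM-scaled CPM of NTN1, DCC, EPHB2 and SLIT2 (y axes, from 0) against the summed CPM of 6 floor plate markers (x axis) in the 6 progenitor libraries, BafA1 NPC and control NPC. BafA1 replicate 1, at 694 CPM of markers, holds the highest NTN1, DCC and SLIT2 of all 6 libraries.

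A list of 60 partner genes, with co-receptors, adaptors and cytoplasmic effectors of these families, all tested, gave 12 that rose and 11 that fell in BafA1 NPC against control NPC (median log2 change 0.12). These are 20% and 18.3%, beside 20.8% and 20.7% of all genes tested. VEGFA, a ligand of the neuropilins, was at 395 ± 97.2 CPM in BafA1 NPC and 102 ± 26.3 CPM in control NPC (log2 change 1.95 ± 0.20 SE, edgeR adjusted p = 3.79e-05). RRAS, a small GTPase switched off by plexins, rose by 1.72 ± 0.14 SE, and the adhesion molecule gene L1CAM by 1.59 ± 0.18. FLRT2, a ligand of UNC5 receptors, fell to 37.3 ± 9.20 CPM in BafA1 NPC, against 84.5 ± 8.15 CPM in control NPC (log2 change -1.18 ± 0.16 SE, edgeR adjusted p = 1.54e-04).

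The comparison of control NPC with hESC asks what differentiation itself changed. The Slits, neuropilins and ephrin-B ligands and 3 of 4 netrins were higher in control NPC, while EPHA1, UNC5D and most membrane semaphorins were lower. In all 36 of 68 members rose and 23 fell, or 52.9% and 33.8%, against 33.0% and 31.6% of all genes tested. The median log2 change was 0.71 over members and 0.03 over all genes, and 30 rose and 16 fell by at least 2-fold. For the 2-fold counts the shares of all genes were not counted. Of the 59 calls 54 held in each of the 20 alternative settings. The 5 others were EPHA5, SEMA4C, SEMA4G, PLXNB1 and PLXNB3. Markers of other cell types moved in the same comparison: 6 of 6 mesenchyme markers were called higher, and 5 of 6 epithelial and 5 of 6 endothelial markers lower, with the sums given above. Their part in the members' changes was not tested.

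**Figure D4:**
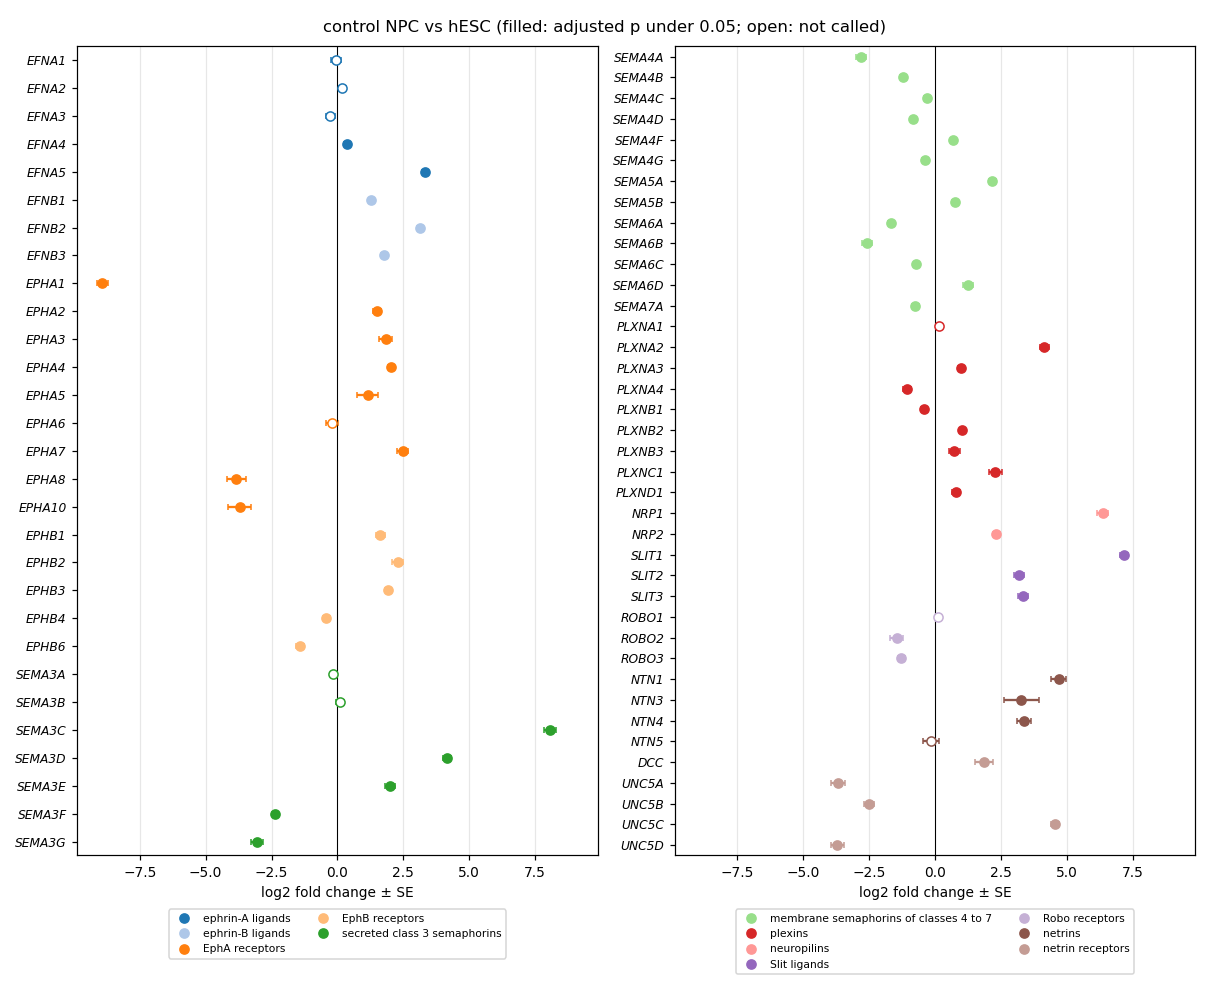
Log2 fold change (x axis, with SE bars) of each of the 68 tested members in control NPC against hESC, n = 3 libraries each, coloured by family; filled points passed an edgeR adjusted p under 0.05. The range runs from EPHA1 at -8.93 to SEMA3C at 8.07, and all Slits, neuropilins and ephrin-B genes lie to the right of 0.

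All 3 ephrin-B ligands rose. EFNB2 had 210.4, 177 and 172 CPM in control NPC, against 20.2, 22.2 and 21.0 CPM in hESC (log2 change 3.14 ± 0.11 SE, edgeR adjusted p = 3.41e-10). EFNB1 and EFNB3 rose by 1.28 ± 0.10 and 1.77 ± 0.12 SE. Among ephrin-A ligands EFNA5 had 70.1, 64.5 and 54.0 CPM in control NPC, against 6.50, 5.80 and 6.74 CPM in hESC (log2 change 3.31 ± 0.11 SE, edgeR adjusted p = 2.95e-10), and EFNA4 rose by 0.36 ± 0.10. EFNA1 was at 1.78 ± 0.0728 CPM in control NPC and 1.87 ± 0.276 CPM in hESC (edgeR adjusted p = 0.764), and EFNA3 at 15.2 ± 2.81 and 18.5 ± 2.55 CPM (edgeR adjusted p = 0.159).

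Of 9 EphA receptors 5 rose and 3 fell, and of 5 EphB receptors 3 rose and 2 fell. EPHA1 (chr7:143391129-143408856), an Eph receptor of epithelia, fell to 0.789, 1.03 and 0.458 CPM in control NPC, against 372, 375 and 369 CPM in hESC (log2 change -8.93 ± 0.21 SE, edgeR adjusted p = 2.57e-11), a 487-fold difference. In hESC it held 86.1% of the summed EphA FPKM of 113 ± 2.08. In control NPC the sum was 48.3 ± 1.64 FPKM and EPHA2 held the largest share (42.7%). EPHA8 and EPHA10 also fell, by 3.83 and 3.70 on the log2 scale, to under 0.5 CPM. EPHA7 had 44.3, 57.6 and 83.0 CPM in control NPC, against 9.45, 11.1 and 12.6 CPM in hESC (log2 change 2.48 ± 0.21 SE, edgeR adjusted p = 8.67e-07). EPHA4 and EPHA3 rose by 2.04 ± 0.11 and 1.83 ± 0.25 SE, and EPHA2 rose to 90.0 ± 14.4 CPM in control NPC, against 31.8 ± 2.64 CPM in hESC (edgeR adjusted p = 2.91e-06). EPHB2 had 120.3, 131 and 174 CPM in control NPC, against 31.8, 26.2 and 29.9 CPM in hESC (log2 change 2.28 ± 0.21 SE, edgeR adjusted p = 1.28e-06), EPHB3 and EPHB1 rose by 1.92 ± 0.12 and 1.62 ± 0.17, and EPHB6 and EPHB4 fell by 1.42 and 0.42. EPHB4 overlaps SLC12A9, so its value is uncertain, and with GC and length corrected its log2 change was -0.24. EPHA5 was at 0.493 ± 0.124 and 0.222 ± 0.0648 CPM in control NPC and hESC (log2 change 1.15 ± 0.40 SE, edgeR adjusted p = 0.0247). The EPHA5 call did not hold without hESC replicate 1 (0.0805), hESC replicate 3 (0.0904) or control replicate 1 (0.101).

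Of 7 class 3 semaphorins 3 rose and 2 fell, and the leading gene by FPKM differed between the groups. SEMA3C (chr7:80742538-80922389) had 141, 144 and 118 CPM in control NPC, against 0.215, 0.663 and 0.648 CPM in hESC (log2 change 8.07 ± 0.24 SE, edgeR adjusted p = 1.17e-10). SEMA3D had 32.0, 27.9 and 25.4 CPM in control NPC, against 1.47, 1.99 and 1.31 CPM in hESC (log2 change 4.16 ± 0.16 SE, edgeR adjusted p = 9.46e-10), and SEMA3E rose by 2.00 ± 0.20 SE. SEMA3F fell to 10.7, 10.8 and 12.8 CPM in control NPC, against 63.4, 51.4 and 62.5 CPM in hESC (log2 change -2.37 ± 0.13 SE, edgeR adjusted p = 1.83e-08), and SEMA3G fell by 3.05. SEMA3C made up 62.4% of class 3 FPKM in control NPC, and SEMA3F 62.3% in hESC. SEMA3A was at 49.7 ± 2.28 and 55.4 ± 4.24 CPM in control NPC and hESC (edgeR adjusted p = 0.146), and SEMA3B at 5.42 ± 0.0644 and 5.02 ± 1.01 CPM (edgeR adjusted p = 0.564).

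Among the 13 membrane semaphorins 9 fell and 4 rose. SEMA6A, a ligand of plexins A2 and A4, fell to 159, 153 and 146 CPM in control NPC, against 487, 491 and 476 CPM in hESC (log2 change -1.66 ± 0.12 SE, edgeR adjusted p = 2.07e-07), and was the membrane semaphorin with the highest FPKM in both groups (20.4 ± 1.21 and 62.0 ± 0.0792). SEMA4A and SEMA6B fell by 2.79 and 2.58 on the log2 scale, and SEMA4B, SEMA4D, SEMA7A and SEMA6C by 1.20, 0.82, 0.74 and 0.73. SEMA4D overlaps SECISBP2, so its value is uncertain. The SEMA4C and SEMA4G falls (-0.32 ± 0.10 and -0.39 ± 0.12 SE) were lost with GC and length corrected (adjusted p = 0.110 and 0.0788). SEMA4C was also not called without hESC replicate 1 (0.0530), nor SEMA4G without hESC replicate 3 (0.0674) or control replicate 2 (0.0521). SEMA5A had 81.5, 72.8 and 57.3 CPM in control NPC, against 16.1, 16.1 and 15 CPM in hESC (log2 change 2.17 ± 0.13 SE, edgeR adjusted p = 2.70e-08), and SEMA6D, SEMA5B and SEMA4F rose by 1.25 ± 0.20, 0.75 ± 0.10 and 0.69 ± 0.10.

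Both neuropilins and 6 of 9 plexins rose, and 2 plexins fell. NRP1, a co-receptor for class 3 semaphorins and for VEGF, had 42.2, 37.7 and 40.8 CPM in control NPC, against 0.492, 0.239 and 0.716 CPM in hESC (log2 change 6.36 ± 0.21 SE, edgeR adjusted p = 2.82e-10). NRP2 had 245, 179 and 204 CPM in control NPC, against 44.1, 40.6 and 40.2 CPM in hESC (log2 change 2.33 ± 0.12 SE, edgeR adjusted p = 1.19e-08). PLXNA2 had 49.0, 42.7 and 33.7 CPM in control NPC, against 2.5, 2.32 and 2.25 CPM in hESC (log2 change 4.15 ± 0.18 SE, edgeR adjusted p = 2.45e-09). PLXNC1, the receptor of SEMA7A, rose by 2.29 ± 0.24 SE to 4.62 ± 1.29 CPM, a value that is uncertain because the gene overlaps CEP83. PLXNB2, PLXNA3, PLXND1 and PLXNB3 rose by 1.04 ± 0.10, 0.99 ± 0.12, 0.79 ± 0.16 and 0.74 ± 0.22. PLXNA4 and PLXNB1 fell by 1.07 and 0.42, and PLXNA1 was at 164 ± 2.30 and 147 ± 3.78 CPM (edgeR adjusted p = 0.268). The PLXNB3 call was lost without control replicate 2 (0.0583), and that of PLXNB1 with limma on log2(FPKM + 1) (0.0586). The PLXNB1 log2 change was -0.23 with GC and length corrected.

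All 3 Slits rose, while 2 of 3 tested Robos fell. SLIT1 (chr10:96998038-97185959) had 128, 148 and 168 CPM in control NPC, against 1.09, 0.792 and 1.18 CPM in hESC (log2 change 7.17 ± 0.16 SE, edgeR adjusted p = 2.08e-11). SLIT2 had 249, 236 and 326 CPM in control NPC, against 29.1, 28.9 and 31.0 CPM in hESC (log2 change 3.19 ± 0.18 SE, edgeR adjusted p = 2.26e-08), and SLIT3 had 19.4, 24.4 and 27.6 CPM in control NPC, against 2.54, 1.75 and 2.73 CPM in hESC (log2 change 3.34 ± 0.20 SE, edgeR adjusted p = 3.40e-08). Summed Slit FPKM were 49.0 ± 6.98 in control NPC and 3.5 ± 0.225 in hESC, and summed Robo FPKM 13.2 ± 0.507 and 17.5 ± 1.28. ROBO2 fell by 1.45 and ROBO3 by 1.28 on the log2 scale, and ROBO1 was at 78.8 ± 6.30 and 72.1 ± 2.09 CPM (edgeR adjusted p = 0.312).

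Of 4 netrins 3 rose. NTN1 (chr17:9003087-9244000) had 93.0, 99.7 and 134 CPM in control NPC, against 4.61, 3.87 and 4.14 CPM in hESC (log2 change 4.69 ± 0.27 SE, edgeR adjusted p = 2.26e-08), beside the rise of the floor plate markers given above. NTN4, a laminin-related netrin, rose by 3.38 ± 0.28 SE to 5.95 ± 1.12 CPM. NTN3 had 1.19, 0.879 and 1.34 CPM in control NPC, against 0.277, 0 and 0.0512 CPM in hESC (log2 change 3.28 ± 0.68 SE, edgeR adjusted p = 0.00112); without hESC replicate 1 its log2 change was 5.31. The netrin receptors split. UNC5D fell to 10.8, 6.86 and 5.93 CPM in control NPC, against 98.9, 105 and 101 CPM in hESC (log2 change -3.70 ± 0.26 SE, edgeR adjusted p = 1.36e-07). UNC5B fell to 10.8, 10.2 and 12 CPM in control NPC, against 63.0, 63.0 and 62.0 CPM in hESC (log2 change -2.51 ± 0.19 SE, edgeR adjusted p = 2.15e-07). UNC5A fell by 3.68. UNC5C had 30.7, 29.3 and 24.4 CPM in control NPC, against 0.937, 1.23 and 1.42 CPM in hESC (log2 change 4.56 ± 0.16 SE, edgeR adjusted p = 4.44e-10), and DCC had 4.70, 5.66 and 9.12 CPM in control NPC, against 1.66, 1.75 and 1.93 CPM in hESC (log2 change 1.87 ± 0.34 SE, edgeR adjusted p = 4.48e-04). By FPKM the leading netrin receptor was UNC5B in BafA1 NPC (42.5% of the summed FPKM), UNC5C in control NPC (46.9%) and UNC5D in hESC (48.1%). Of the 60 partner genes 27 rose and 20 fell (45.0% and 33.3%, beside 33.0% and 31.6% of all genes; median log2 change 0.22). CHL1, NRCAM and RGMB had the smallest adjusted p among those that rose (5.67, 3.66 and 3.07), and PAK1, VASP and ERBB2 among those that fell (-1.91, -1.47 and -1.52).

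**Figure D5:**
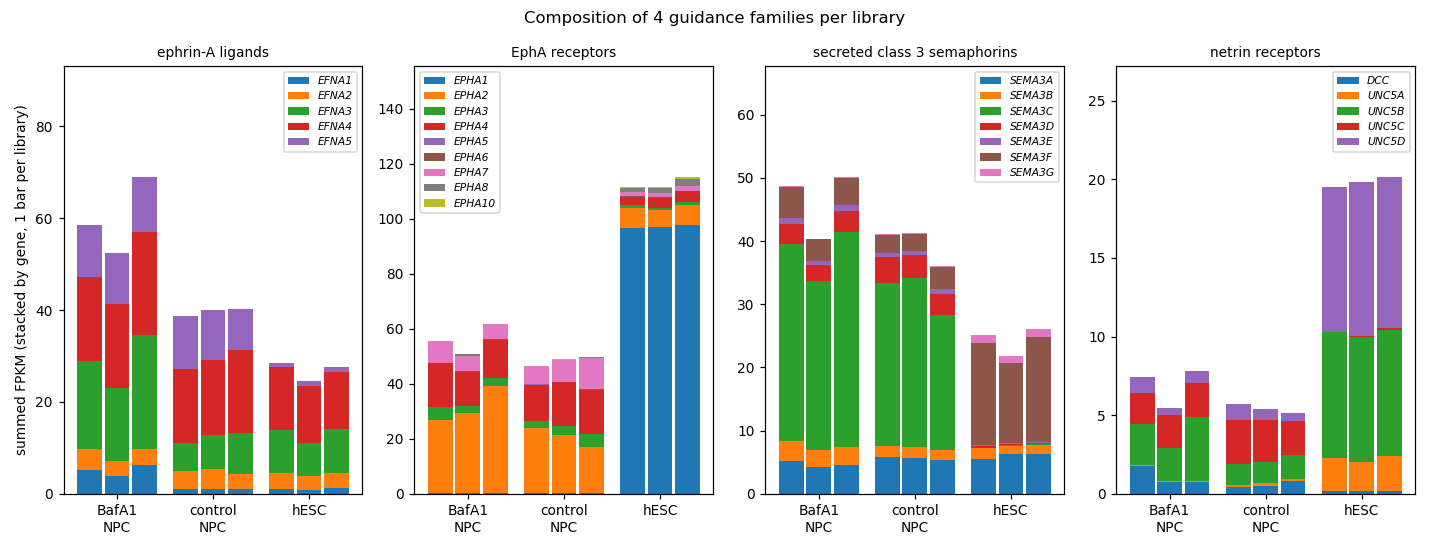
Summed FPKM (y axis, from 0), stacked by gene with 1 bar per library, of the ephrin-A ligands, EphA receptors, class 3 semaphorins and netrin receptors in BafA1 NPC, control NPC and hESC. EPHA1 fills 86.1% of the EphA bars in hESC, and the ephrin-A sums are 60.0 ± 8.34 in BafA1 NPC, 39.7 ± 0.760 in control NPC and 26.8 ± 2.11 in hESC.

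Set directly against hESC, BafA1 NPC had 42 members higher and 23 lower of 68, or 61.8% and 33.8%, with a background of 35.5% and 34.8%. This comparison shares its groups with the other 2. EFNA1 was at 9.78 ± 1.96 CPM in BafA1 NPC and 1.87 ± 0.276 CPM in hESC (log2 change 2.39 ± 0.19 SE, edgeR adjusted p = 3.50e-07), and EFNA3 at 44.9 ± 8.77 and 18.5 ± 2.55 CPM (log2 change 1.28 ± 0.16 SE, edgeR adjusted p = 2.21e-05). EPHA6, SEMA3B and ROBO1 were likewise higher in BafA1 NPC (1.16 ± 0.22, 1.01 ± 0.15 and 0.84 ± 0.11 SE), the EPHA6 call being lost with limma on log2(FPKM + 0.1) (0.0910). PLXNA2 was at 11.4 ± 2.19 CPM in BafA1 NPC and 2.36 ± 0.131 CPM in hESC (log2 change 2.27 ± 0.18 SE, edgeR adjusted p = 2.71e-07), with control NPC at 41.8 ± 7.68 CPM. UNC5B was at 24.6 ± 8.19 CPM in BafA1 NPC, 11.0 ± 0.911 CPM in control NPC and 62.7 ± 0.585 CPM in hESC (BafA1 NPC against hESC, log2 change -1.34 ± 0.18 SE, edgeR adjusted p = 2.62e-05). SEMA4A was at 3.29 ± 0.407, 1.43 ± 0.343 and 9.86 ± 0.771 CPM and SEMA3F at 17.5 ± 2.53, 11.5 ± 1.20 and 59.1 ± 6.69 CPM in the same groups. PLXNA1 and SEMA3A were called in BafA1 NPC against hESC (0.34 ± 0.12 and -0.26 ± 0.09), and both calls were lost when single libraries were left out. PLXNA1 was not called without hESC replicate 1 (0.0503), hESC replicate 2 (0.0579), hESC replicate 3 (0.0726) or BafA1 replicate 1 (0.0629), SEMA3A without hESC replicate 2 (0.0908), hESC replicate 3 (0.0625), BafA1 replicate 2 (0.0654) or BafA1 replicate 3 (0.0795) and SEMA4G (0.34 ± 0.12) without hESC replicate 1 (0.0587), hESC replicate 2 (0.118), BafA1 replicate 1 (0.0661) or BafA1 replicate 3 (0.102). The log2 change of PLXNA1 was 0.15 without BafA1 replicate 1. Of the 60 partner genes 30 were higher and 19 lower in BafA1 NPC than in hESC (50.0% and 31.7%, beside 35.5% and 34.8% of all genes; median log2 change 0.26).

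ROBO4, the endothelial Robo, was the only member left out by the filter. It had 0, 2 and 0 counts in BafA1 NPC, 5, 6 and 0 in control NPC and 6, 2 and 0 in hESC, near the floor of 3 counts per library. Other members at under 2 CPM on average in both NPC groups were EPHA1, EPHA5, EPHA8, EPHA10, SEMA3G, NTN3, NTN5 and UNC5A, for which ratios rest on few counts. The spread between libraries was close to that of other genes, with a median coefficient of variation over the tested members of 14.5% in BafA1 NPC, 12.3% in control NPC and 7.69% in hESC, against 14%, 11.9% and 8.02% over all genes tested.

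For some members the deposited counts and FPKM moved by different amounts. The ratio of count to FPKM, scaled by the library total, has the unit of a length and is called the assumed length. It is not a transcript length as such, because it can also hold a factor common to the genes of a library. In BafA1 replicates 1, 2 and 3 SLIT1 had 9724, 9872 and 8903 bases, and PLXNB2 7823, 7921 and 7147. Differences between single libraries are therefore not specific to a gene. The mean assumed length in BafA1 NPC over that in control NPC had a median of 1.02 over the 68 members, and 59 lay within 0.05 of it. In control NPC over hESC 54 lay within 0.05 of the median of 1.03, and in BafA1 NPC over hESC 51 lay that close to theirs. The largest ratio was that of EPHA8 in control NPC over hESC, 1.99, with assumed lengths of 5047, 5996 and 6238 bases in control NPC and 3252, 2747 and 2684 in hESC. EPHA10 had 6476, 6432 and 6908 bases in control NPC and 5581, 4059 and 3249 in hESC. In control NPC these rest on 22, 23 and 24 counts for EPHA8 and 5, 14 and 6 for EPHA10. For ROBO3 the assumed length was 2719.5, 2359 and 2354 bases in BafA1 NPC, 2112, 2013 and 2158 in control NPC and 1883, 1983 and 1930.4 in hESC. Its FPKM were 3.00 ± 0.431 in BafA1 NPC and 2.70 ± 0.322 in control NPC, a ratio of 1.11, beside a fold change of 1.43 in TMM-scaled counts. The ratio of its assumed lengths was 1.18. TMM scaling enters the fold change but not the FPKM ratio, so the gap is not one of assumed length alone. EPHA6 had assumed lengths of 17361, 9777 and 7809.8 bases in BafA1 NPC and 5327, 11874 and 6443 in control NPC and FPKM of 0.394 ± 0.194 and 0.244 ± 0.1. EPHB2 had 10406, 8109.6 and 10319.8 bases in BafA1 NPC, 11303, 11760.5 and 12105 in control NPC and 7972, 11055 and 10097 in hESC, and PLXNA3, which overlaps LAGE3, had 8889, 8772 and 8316 in BafA1 NPC, 10082, 10603 and 9608 in control NPC and 10558, 10462 and 9441 in hESC. UNC5C had 12156, 12256 and 11013 bases in BafA1 NPC, 11608, 11541 and 11908 in control NPC and 16217, 15645 and 14095 in hESC, where its count was low. The transcripts behind these lengths are not given in the files, and a shift in transcript use was not tested.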

How the data were processed

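Total RNA was turned into libraries with a TruSeq Stranded mRNA kit, per the labels' protocols. Trimmomatic and GRCh38 are named, per the submitters' processing notes, and no aligner or counter is named there. The deposited values are raw whole-number counts and FPKM of each gene, both by the authors, per the file headers. Control columns were taken as the untreated NPC, the group left for them, with 0 columns left over.

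The members, gene lists and alternatives were chosen with earlier results of these data known. Counts were tested with edgeR 4.0.16 (R 4.3.3): filterByExpr, TMM, a two-sided quasi-likelihood test on group means of all 9 libraries, Benjamini-Hochberg adjusted over 20685 genes. Library totals were 43124679 to 69703791 counts, and floors cover counting error only. The script was tested on simulated data. Full values are given for up to 24 members per comparison, called, without overlap and with at least 1 CPM, by size of change, and for a fixed list of further members; the other members have fewer values. Some partner genes that the rule would name are not reported here. Alternatives used limma 3.58.1 and DESeq2 1.42.0, other scalings and filters, removal of GC and length trends (GENCODE transcripts), the replicate number as a block, and each library left out. Coordinates are RefSeq's on GRCh38.p14, joined by gene ID.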

Additional observations from a re-analysis of the deposited data

How the results depend on the processing

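No called member changed direction in an alternative setting that tested it; there were 20 settings, and EPHA5 was not tested with a filter of at least 1 CPM in 3 libraries. In BafA1 NPC against control NPC 16 of 32 called members held in every setting, in control NPC against hESC 54 of 59, and in BafA1 NPC against hESC 61 of 65. Members that rose with BafA1 numbered 23, and 13 with limma on log2(FPKM + 1) and 12 with limma on log2(FPKM + 0.1); the cause was not tested. On the log2(FPKM + 1) scale the changes of 23 of 32, 24 of 59 and 28 of 65 called members were over 1.5 times smaller, in the same order of comparisons. The members that rose with BafA1 numbered 26 with DESeq2 and 16 with library size alone. With library size alone all genes split into 3104 higher and 5681 lower, against 4309 and 4277. Leaving out each library in turn gave 17 to 22 members that rose and 5 to 10 that fell with BafA1, 35 to 36 and 22 to 24 in control NPC against hESC, and 40 to 42 and 22 to 23 in BafA1 NPC against hESC. With GC and length trends removed, 23 rose and 10 fell with BafA1. The replicate numbers are shared between groups. Correlations of deviations were -0.0554 to 0.0877 for same-numbered libraries and -0.0572 to 0.0498 for other pairs between groups. Such values cannot show whether same-numbered libraries shared a culture or batch, and the labels do not say. With the replicate block 21 members rose and 8 fell with BafA1 (23 and 9 without it), 35 and 23 in control NPC against hESC (36 and 23), and 42 and 23 in BafA1 NPC against hESC (the same counts); with the block and GC and length trends removed the BafA1 counts were 23 and 10. Scaling by library size alone moved the median log2 change of all genes to -0.12 with BafA1 and to 0.14 in control NPC against hESC. With 3 libraries a group, members under 2 CPM have ratios that rest on few counts.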
